A study of Mus musculus with 8 samples.

Results

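The 9 genes described here make, bind, break down or sense retinoic acid, and they were chosen by name from among the genes of the array: Aldh1a1, Aldh1a2, Aldh1a3, Dhrs3, Crabp1, Cyp26a1, Cyp26b1, Rara and Rarb. Each had exactly 1 probe set that the platform annotation ties to that gene alone, so all 9 members were measured, out of 19938 genes in all. Affymetrix mouse gene 1.0 ST arrays measured expression in 4 RNA pools of mouse pancreatic buds, the early organ in which a branching epithelium grows inside mesenchyme. The VEGF pool came from fresh buds of 3 e12.5 embryos that carried Pdx1-tTA together with TET-VEGF, and the control pool from 3 littermates that carried Pdx1-tTA only. In Pdx1-tTA embryos the promoter of Pdx1, a pancreatic gene, drives the tetracycline transactivator, so VEGF is switched on where that promoter is active, and the control embryos carry the transactivator as well. For the pool labelled VEGFR2i, 5 buds of wild-type e12.5 embryos were taken into culture and kept for 2 days with a compound that inhibits VEGF receptor 2, and the vehicle pool held 5 such explants cultured equally long with vehicle. The RNA of every pool went onto 2 arrays, 1 of them a technical repeat, so there were 8 arrays. Every condition was therefore 1 pool, no test of a condition was possible, and SDs (n = 2 arrays) measure hybridization error only.

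Retinoic acid is made from vitamin A in steps. Retinol is oxidised to retinal, a step that Dhrs3 runs in reverse, and the retinal dehydrogenases Aldh1a1, Aldh1a2 and Aldh1a3 oxidise retinal to retinoic acid. Crabp1 binds retinoic acid in the cytoplasm, and Cyp26a1 and Cyp26b1 hydroxylate it for removal. Retinoic acid binds the nuclear receptors Rara and Rarb, which pair with RXR receptors on DNA and raise or lower transcription of nearby genes. In the embryo, Aldh1a2 in the mesoderm around the foregut supplies the signal that the dorsal pancreas needs to form. Rarb and Cyp26a1 are textbook targets of the pathway, because retinoic acid receptors bind at their promoters.

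Promoter sequences of Rarb and Cyp26a1 are shown because both genes serve as readouts of the pathway and the receptor motif can be read in them. Windows from 250 bases before to 50 bases after each annotated start were taken from RefSeq (GRCm38.p6), which held 14 windows for 8 of the 9 genes. They were searched on both strands for direct repeats of 2 units of 6 bases, each AGGTCA or AGTTCA or GGGTCA or GGTTCA, with 1, 2 or 5 bases between them. Capitals mark the match, and both sequences run 5′ to 3′ on the strand of the gene, Rarb at chr14:16575427-16575726 on the minus strand and Cyp26a1 at chr19:37697558-37697857 on the plus strand.
Rarb: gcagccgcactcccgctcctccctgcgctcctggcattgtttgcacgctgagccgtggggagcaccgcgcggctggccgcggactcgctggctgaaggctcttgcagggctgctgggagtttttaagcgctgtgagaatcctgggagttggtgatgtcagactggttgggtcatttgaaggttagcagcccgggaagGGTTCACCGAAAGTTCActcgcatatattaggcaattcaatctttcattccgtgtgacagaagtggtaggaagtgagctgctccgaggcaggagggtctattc
Cyp26a1: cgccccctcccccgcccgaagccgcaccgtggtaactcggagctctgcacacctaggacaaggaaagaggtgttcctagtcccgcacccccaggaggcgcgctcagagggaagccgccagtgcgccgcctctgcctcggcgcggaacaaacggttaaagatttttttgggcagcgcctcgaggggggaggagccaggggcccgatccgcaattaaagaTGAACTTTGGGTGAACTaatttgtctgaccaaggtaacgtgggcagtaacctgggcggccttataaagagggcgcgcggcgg
In Rarb the match begins 53 bases upstream of the start and reads GGTTCACCGAAAGTTCA. In Cyp26a1 it begins 32 bases upstream and lies on the opposite strand, where it reads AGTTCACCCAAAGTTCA. Both are repeats with 5 bases between the units, a spacing found in 32 of all 32851 windows (0.0974%), against 73 windows with 1 base and 88 with 2 bases. The other 12 windows of the members held none of these letters in this arrangement. A match is a description of the sequence and not evidence that a receptor is bound there.

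Values are log2 expression. The size rule called a gene where the means of 2 pools were 1.5-fold or more apart, which is 0.58 in log2 units, and the arrays of the pools did not overlap. Repeat arrays of the same pool differed by that much for 4 to 25 genes, and the largest gap of a member was 0.32, for Aldh1a1 in the control pool. Medians over all probe sets were 4.08 to 4.12 on the arrays of fresh buds and 4.29 to 4.33 on those of explants, and the sources used here do not say whether the 2 sets were normalized together. Pancreatic identity was checked on markers. Pdx1 was at 6.26 and 6.50 in the VEGF pool, 6.90 and 7.02 in the control pool, and 8.37 to 8.49 on the 4 explant arrays, and the enzyme gene Cpa1 was at 10.8 or more everywhere. Ptf1a, a factor of acinar cells and their progenitors, lay below the array medians in the fresh buds, at 3.84 to 3.99, and reached 6.69 to 7.37 in the explants. Vessel genes of the explants went against the labels. All 16 endothelial markers were higher in the pool labelled VEGFR2i, by a median of 2.13, and 15 were called. Cdh5 was at 8.65 and 8.67 there, against 4.73 and 4.40 in the vehicle pool. All explant directions below follow the labels as they stand.

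**Figure D1:**
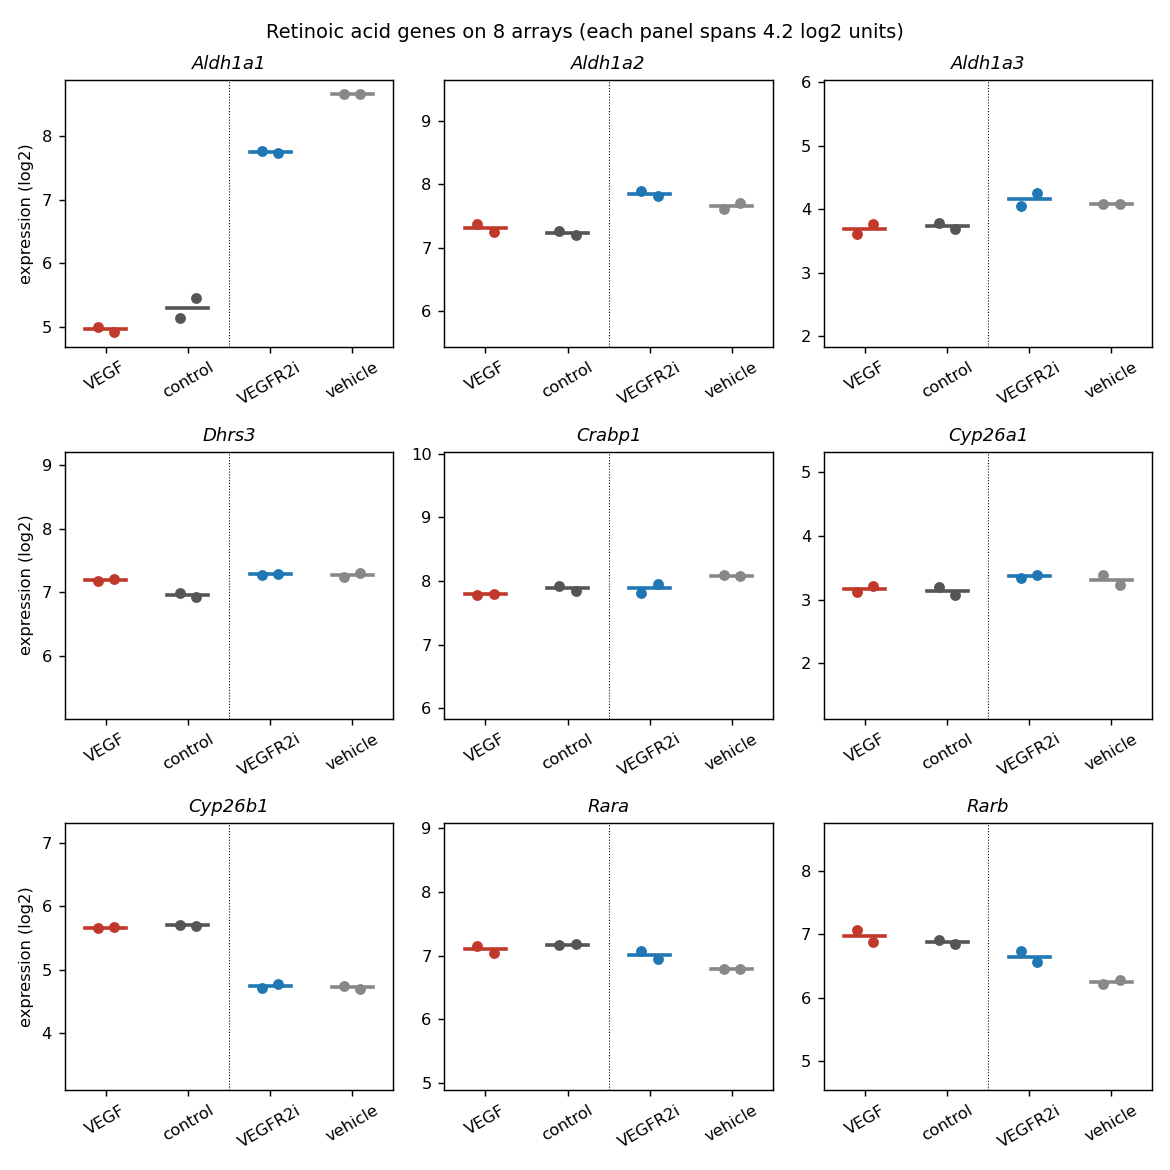
Log2 expression of the 9 retinoic acid genes in the VEGF, control, VEGFR2i and vehicle pools. Points are the 2 arrays of a pool, bars are pool means, and the dotted line divides fresh buds (left) from explants (right). All panels span 4.2 log2 units, and Aldh1a1 has the widest range, with 4.92 as its lowest value and 8.65 as its highest.

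The first comparison asked what VEGF added in the Pdx1 territory did to the retinoic acid genes of the fresh bud. None of the 9 genes was called higher or lower, and 8 of them differed by less than 0.25. Aldh1a1 had the widest difference of the 9, towards less in the VEGF pool, and Dhrs3 the widest in the other direction. Of all genes, 1.48% were called in this comparison (296 of 19938), so a count of 0 in 9 is near that background. The median difference of the 9 genes was -0.04, beside 0.00 over all genes.

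Among the synthesis enzymes, Aldh1a1 was at 5.00 and 4.92 in the VEGF pool, against 5.14 and 5.45 in the control pool. Both VEGF arrays lay below both control arrays, by a mean difference of -0.34 with a range over the 4 pairs of arrays of -0.54 to -0.14. The 2 control arrays were 0.32 apart, which is about as wide as the difference, and without control array 2 it was -0.18. A difference of -0.34 or below was found for 506 genes (2.54%). Aldh1a2, the enzyme of the mesoderm, was at 7.38 and 7.25 in the VEGF pool, against 7.27 and 7.20 in the control pool, and the arrays overlapped. Aldh1a3 lay below the array medians, at 3.61 and 3.77 in the VEGF pool and 3.79 and 3.69 in the control pool, with overlapping arrays. Dhrs3, which turns retinal back into retinol, was at 7.18 and 7.20 in the VEGF pool, against 6.99 and 6.92 in the control pool. Its arrays did not overlap, and the difference of 0.24 (0.19 to 0.28 over pairs), or 1.18-fold, was met or passed by 878 genes (4.40%).

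The carrier and the breakdown enzymes moved little. Crabp1 was at 7.78 and 7.80 in the VEGF pool, against 7.93 and 7.84 in the control pool, a difference of -0.10. Cyp26b1 was at 5.65 and 5.67 in the VEGF pool, against 5.71 and 5.69 in the control pool. Both genes had arrays that did not overlap, though the differences were small. Cyp26a1 was at the dim end, at 3.12 and 3.22 in the VEGF pool and 3.20 and 3.07 in the control pool. Values this dim say little about a change in either direction.

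The receptors were nearly level between the fresh pools. Rara was at 7.15 and 7.05 in the VEGF pool, against 7.17 and 7.18 in the control pool. Rarb was at 7.07 and 6.88 in the VEGF pool, against 6.91 and 6.85 in the control pool, and its arrays overlapped. In all, 1 gene (Dhrs3) had both VEGF arrays above both control arrays and 4 genes (Aldh1a1, Crabp1, Cyp26b1, Rara) had both below. Over all genes, arrays did not overlap for 45.3%, with 23.7% above and 21.6% below, so these 5 of 9 are near the background too.

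Cell type markers differed far more than the retinoic acid genes in the same pools. All 12 epithelial markers were lower in the VEGF pool, and 7 were called. The list's mean level was 7.51 to 7.57 on the VEGF arrays and 8.13 on both control arrays. Of 10 mesothelial markers, 9 were higher and 6 were called. That list had mean levels of 5.81 to 5.85 on the VEGF arrays and 5.27 to 5.28 on the control arrays. All 16 endothelial markers were higher, and 6 were called. Acinar markers were lower for 9 of 11, and 5 were called. Mean levels of the acinar list were 4.95 to 5.01 on the VEGF arrays and 5.67 to 5.69 on the control arrays. Markers of pancreatic progenitors were lower for 10 of 11 and called for 6, at 6.01 to 6.08 in the VEGF pool and 6.58 on both control arrays. Erythroid markers were higher for all 10 and called for 6, at 6.88 to 6.90 in the VEGF pool and 6.04 to 6.05 in the control pool. Liver markers were called higher for 4 of 7 and called lower for 1, at 6.27 to 6.28 in the VEGF pool and 5.77 to 5.79 in the control pool. Of 16 mesenchymal markers, 12 were higher and 4 lower, with 1 called higher and 2 called lower. Their median difference was 0.13. In such bulk RNA fewer cells of a type and less RNA per cell cannot be told apart, and the part of these markers in the values of Aldh1a1 and Dhrs3 was not tested.

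**Figure D2:**
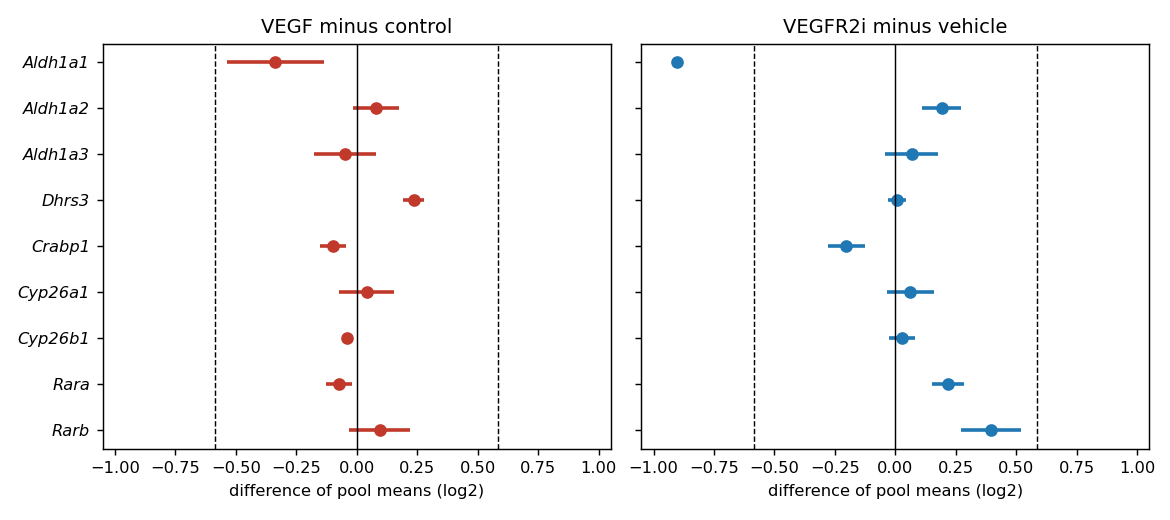
Differences of pool means (log2) for each retinoic acid gene, with VEGF minus control on the left and VEGFR2i minus vehicle on the right. Points are differences, lines give the range over the 4 pairs of arrays, and dashed lines mark 1.5-fold. Only Aldh1a1 between the explant pools, at -0.90, lies past a dashed line.

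The second comparison set the explant pool labelled VEGFR2i against the vehicle pool. Aldh1a1 was lower in the pool labelled VEGFR2i by 1.87-fold and was the 1 gene called among the 9. Rarb, a receptor and a target of the pathway, was 1.32-fold above the vehicle pool and so short of the call, and Rara and Aldh1a2 lay above it by smaller amounts. Cyp26a1, Cyp26b1, Aldh1a3 and Dhrs3 had overlapping arrays. Over all genes 2.19% were called, and 0.371% were called lower, beside 1 of the 9 genes. The 9 had a median difference of 0.06, against 0.00 over all genes.

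Aldh1a1 was at 7.77 and 7.73 in the pool labelled VEGFR2i, against 8.65 on both arrays of the vehicle pool. The arrays of each pool were close together and the pools were well apart. The difference of -0.90 had a range over pairs of arrays of -0.92 to -0.89, and 15 of 19938 genes (0.0752%) had a difference as low or lower. Aldh1a2 was at 7.89 and 7.82 in the pool labelled VEGFR2i, against 7.62 and 7.71 in the vehicle pool, a difference of 0.19 in the opposite direction with no overlap. Aldh1a3 lay below the array medians, at 4.05 and 4.26 in the pool labelled VEGFR2i and 4.09 on both vehicle arrays. Aldh1a1 and Aldh1a2 thus differed in opposite directions, and the dim Aldh1a3 says little about a change. Dhrs3 was at 7.27 and 7.29 in the pool labelled VEGFR2i, against 7.25 and 7.30 in the vehicle pool, with no difference beyond the spread of the arrays.

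Crabp1 was at 7.82 and 7.95 in the pool labelled VEGFR2i, against 8.10 and 8.07 in the vehicle pool. It lay below the vehicle pool on both arrays, by a difference of -0.20 (-0.28 to -0.13 over pairs). Cyp26b1 was at 4.72 and 4.78 in the pool labelled VEGFR2i and 4.75 and 4.70 in the vehicle pool. Cyp26a1, at 3.35 and 3.39 in the pool labelled VEGFR2i and 3.38 and 3.23 in the vehicle pool, stayed below the array medians. Both breakdown enzymes thus overlapped between the pools.

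Both receptors lay above the vehicle pool. Rarb was at 6.74 and 6.56 in the pool labelled VEGFR2i, against 6.22 and 6.28 in the vehicle pool. Its difference of 0.40 (0.27 to 0.52 over pairs) was met or passed by 631 genes (3.16%), and at a 1.3-fold rule it would be called. Rara was at 7.07 and 6.94 in the pool labelled VEGFR2i, against 6.79 on both vehicle arrays, a difference of 0.22. Arrays did not overlap for 5 of the 9 genes, 3 above the vehicle pool (Aldh1a2, Rara, Rarb) and 2 below it (Aldh1a1, Crabp1), where 51% of all genes showed no overlap, 25.9% above and 25% below. The motif shown above is present in the promoters of both Rarb and Cyp26a1, and their differences were 0.40 and 0.06. Cyp26a1 lay below the array medians with overlapping arrays, so its value says little about a change.

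Marker lists that differed between the same explant pools stand beside these values. Of 11 acinar markers, 7 were called lower, and their mean level was 9.09 to 9.16 in the pool labelled VEGFR2i, against 9.95 to 9.97 in the vehicle pool. Endothelial markers had mean levels of 6.72 to 6.74 in the pool labelled VEGFR2i and 4.51 to 4.60 in the vehicle pool. Mural cell markers were called higher for 8 of 10, leukocyte markers for 8 of 10, and mesenchymal markers for 2 of 16, the last with a median difference of 0.25. None of 12 epithelial markers was called, and their median difference was -0.22. No marker is at 0 on this scale, since the deposited values do not go below 2.41. The part of these cell types in the values of Aldh1a1 and Rarb was not tested.

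**Figure D3:**
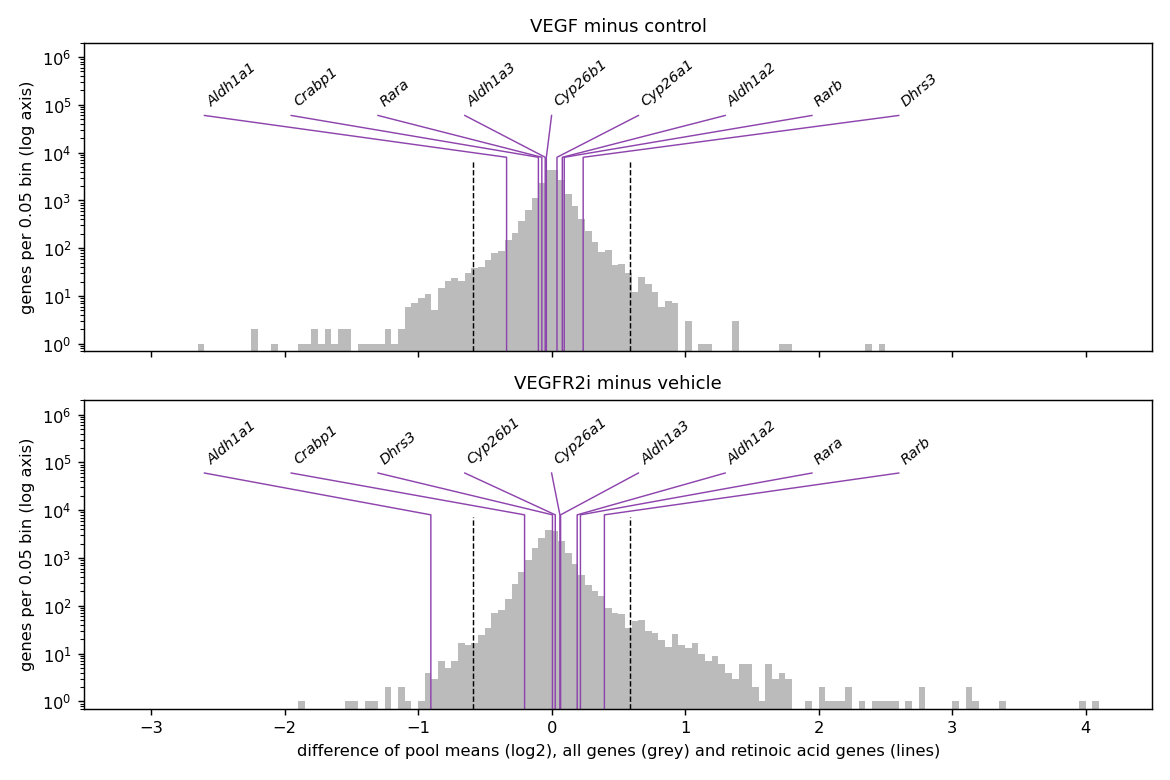
Differences of pool means for all 19938 genes (grey bars, number of genes per bin on a log axis), VEGF minus control above and VEGFR2i minus vehicle below. Lines mark the 9 retinoic acid genes and dashed lines mark 1.5-fold. Most of the 9 lie in the bulk of the distribution, and Aldh1a1 lies in the lower tail between the explant pools, at -0.90.

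The 2 comparisons share no samples, so their values for a gene can be set side by side. Aldh1a1 was lower in the VEGF pool than in control buds (-0.34) and lower in the pool labelled VEGFR2i than in the vehicle pool (-0.90), without overlap of arrays in either. Crabp1 had the same pattern with smaller differences (-0.10 and -0.20). Rara was the third gene without overlap in both, at -0.07 in fresh buds and 0.22 in explants. Lower without overlap in both comparisons describes 7.47% of all genes and 2 of the 9, with the explant labels as they stand. With those labels exchanged, Aldh1a1 and Crabp1 would run in opposite directions and Rara would be lower in both, as would 4.65% of all genes. In both comparisons the endothelial markers were higher, with medians of 0.54 and 2.13.

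The widest contrast in Aldh1a1 lay between explants and fresh buds. Aldh1a1 averaged 8.20 on the 4 explant arrays and 5.13 on the 4 fresh arrays, a difference of 3.08 or 8.43-fold, which 83 of 19938 genes (0.416%) met or passed. Its pools ran in the order vehicle, VEGFR2i, control and VEGF, and the arrays of no neighbouring pair overlapped. Cyp26b1 went the other way, averaging 4.74 in the explants and 5.68 in the fresh buds, a difference of -0.94. On the deposited scale these 2 genes were beyond 1.5-fold with all explant arrays on one side of all fresh arrays, and Rarb was the third once arrays were centred on their medians or quantile normalized together. Over all genes 17.8% were above by that rule on the deposited scale and 3.43% below. After quantile normalization 9.81% were above and 6.83% below, and the shares with centred arrays are not given here. All pools are labelled e12.5, but the sets differ in the 2 days of culture, in genotype, in the number of embryos per pool and possibly in normalization, which cannot be told apart. Marker levels differed between the sets too. Array means of the acinar list were 9.09 to 9.97 in the explants and 4.95 to 5.69 in the fresh buds, those of the endocrine list 8.84 to 8.99 and 5.00 to 6.42, those of the epithelial list 9.54 to 9.77 and 7.51 to 8.13, and those of the endothelial list 4.51 to 6.74 and 7.34 to 7.95. The part of these cell types in the values of Aldh1a1 and Cyp26b1 was not tested.

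The other 7 genes were short of 1.5-fold between the sets on the deposited scale. Rarb was lower in the explants by all arrays, at 6.22 to 6.74 against 6.85 to 7.07 in the fresh buds, with the order VEGF, control, VEGFR2i and vehicle. The VEGF and control pools overlapped in that order, and each of the other neighbours was apart. For Rara, neighbouring pools overlapped only between the VEGF pool and the pool labelled VEGFR2i. Aldh1a2 was at 7.62 to 7.89 in the explants and 7.20 to 7.38 in the fresh buds. Aldh1a3, Dhrs3 and Cyp26a1 were also above the fresh buds on all arrays, by 0.41, 0.20 and 0.19, and Crabp1 overlapped. The medians of the vehicle arrays lay 0.21 above those of the control arrays, so differences of that size mean little. With all 8 arrays quantile normalized together, Dhrs3 and Crabp1 turned to -0.12 and -0.17, and with each array centred on its median Dhrs3, Crabp1 and Cyp26a1 turned to -0.02, -0.07 and -0.03. Aldh1a1 was at 2.77 and Cyp26b1 at -1.24 after quantile normalization, so both kept their direction. Rarb, at -0.48 on the deposited scale, was at -0.70 with centred arrays and -0.81 after quantile normalization. Rara was at -0.24, -0.46 and -0.58 in the same order of scales, Aldh1a2 at 0.48, 0.27 and 0.17, and Aldh1a3 at 0.41, 0.19 and 0.23.

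Aldh1a1 was the single member called, and its pattern over the 4 pools was set against that of every other gene, by the distance between profiles of pool means centred on each gene's own mean. Over these 4 pools the nearest genes were Tc2n (distance 0.25), the cystathionine synthase Cbs (0.27) and the pancreatic elastase Cela3b (0.29). Tc2n differed by -0.15 between the VEGF and control pools and by -0.81 between the explant pools. Cbs differed by -0.60 and -0.62, and Cela3b by -0.09 and -1.22. The 3 profiles share with Aldh1a1 a step of over 2 log2 units between fresh buds and explants, which dominates the distance.

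Further genes of the pathway were followed in 6 lists by role, with 78 measured genes in all. In fresh buds 1 was called higher and 3 lower, and in explants 3 were called higher and none lower. That is 5.13% and 3.85% of the 78, beside 1.48% and 2.19% of all genes. Among all genes with a mean of at least 5 in a pool, 261 of 10101 were called in fresh buds and 382 of 10794 in explants. The shares of the 78 were taken without that filter, so these sets are unlike. The lists were chosen with earlier results of these data known, so the shares are a description and not a test. Median differences of the 78 were 0.00 and -0.01. The lists hold genes with other known roles, and several of the genes called are of that kind.

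Uptake and transport of retinol had 2 of 8 genes called lower in the VEGF pool and none called in the explants. Rbp4, which carries retinol in plasma, was at 8.23 and 8.18 in the VEGF pool, against 9.52 and 9.35 in the control pool. Its partner Ttr, which also carries thyroid hormone and is expressed in islet cells, was at 9.59 and 9.56 in the VEGF pool, against 10.67 and 10.70 in the control pool. Both lay well below the control arrays, by -1.23 and -1.11. In the same pools all 13 endocrine markers were lower in the VEGF pool, and 12 were called. Mean levels of that list were 5.00 to 5.09 on the VEGF arrays and 6.39 to 6.42 on the control arrays. The part of endocrine cells in the values of Rbp4 and Ttr was not tested. Bco1, which cleaves beta-carotene to retinal, differed by -0.49 in fresh buds, without a call. In the explants Ttr differed by -0.24, Rbp2 by -0.18 and Lrat, which esterifies retinol for storage, by -0.10. Lrat lay below the array medians there, with overlapping arrays.

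Of 20 enzymes that convert retinol and retinal, 1 was called in fresh buds and none in explants. Cyp1b1, a cytochrome P450 with several substrates, was at 4.18 and 3.89 in the VEGF pool, against 3.43 and 3.32 in the control pool, a difference of 0.66. The control values lay below the array median, so this is a difference between dim levels. Adh1, an alcohol dehydrogenase that acts on retinol, differed by 0.33 in fresh buds and by -0.43 in explants, without a call in either. In the control pool Adh1 was dim, at 3.87 and 3.96, below the array medians. Rdh10, the main retinol dehydrogenase of the embryo, was at 8.91 and 8.93 in the pool labelled VEGFR2i, against 8.54 and 8.40 in the vehicle pool. Its arrays did not overlap, and the difference of 0.45 was short of the call. Rdh16, at a difference of 0.19 in fresh buds, and Cyp1b1, at -0.28 in explants, were the next in size. Rdh16 was dim there, at means of 3.05 in the VEGF pool and 2.86 in the control pool.

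Carriers, receptors and cofactors had no gene called in either comparison. The 4 other carriers and breakdown enzymes had medians of 0.19 in fresh buds and -0.13 in explants, with Crabp2, the carrier that hands retinoic acid to its receptor, at 0.23 in fresh buds. Cyp2s1 differed by 0.23 and -0.14, Fabp5 by 0.16 and -0.13, and Cyp26c1, the third enzyme of its family, by -0.14 in explants. Cyp2s1 and Cyp26c1 lay below the array medians in the explants, and the arrays of Cyp26c1 overlapped. In the control pool Cyp2s1 lay below the array medians too. Among 5 other receptors the widest differences were those of Rxrg (-0.26), Rarg (0.19) and Ppard (-0.17) in fresh buds, and in explants those of Ppard (0.05), Rarg (0.04) and Rxrb (-0.03). Of 11 cofactors the widest were Ncoa1 with -0.21, Ep300 with -0.14 and Ncoa6 with -0.13 in fresh buds, and Ncoa3 with 0.22, Ncoa1 with -0.18 and Asxl1 with -0.06 in explants. These genes therefore stayed within 1.3-fold between paired pools.

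Genes known to respond to retinoic acid had 1 of 31 called lower in the VEGF pool and 3 of 31 called higher in the pool labelled VEGFR2i. Ret, a receptor of enteric neural crest, was at 4.80 and 4.69 in the VEGF pool, against 5.57 and 5.60 in the control pool, a difference of -0.84. All 8 markers of neural crest, glia and neurons, which include Ret, were lower there, and 3 were called. Mean levels of that list were 5.06 to 5.09 on the VEGF arrays and 5.51 to 5.53 on the control arrays. Nr2f1 and Btg2 differed by 0.55 and -0.52 in fresh buds, without a call. In the explants the homeobox gene Hoxb5 was at 6.78 and 6.86 in the pool labelled VEGFR2i, against 6.23 and 6.08 in the vehicle pool. The orphan nuclear receptor Nr2f1 was at 5.53 and 5.43 in the pool labelled VEGFR2i, against 4.90 and 4.81 in the vehicle pool. Egr1, an immediate early gene with many inducers, was at 5.81 and 5.96 in the pool labelled VEGFR2i, against 5.28 and 5.16 in the vehicle pool. All 3 lay above the vehicle arrays, by 0.67, 0.63 and 0.67. All 10 Hox genes of the list had positive differences there, between 0.04 and 0.67 with a median of 0.20, and 1 of the 10 was called. Of all genes 48.1% were positive there. Hoxa3 and Hoxd4 lay below the array medians of the explants, and Hoxb1 lay near them, at 4.18 to 4.33 with overlapping arrays. In fresh buds 6 of the 10 were positive, with a median of 0.03. In the explants the endothelial, leukocyte, mural cell and mesenchymal markers given above moved in the same direction as the Hox genes. The acinar and epithelial markers moved in the other direction. The part of these cell types was not tested.

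**Figure D4:**
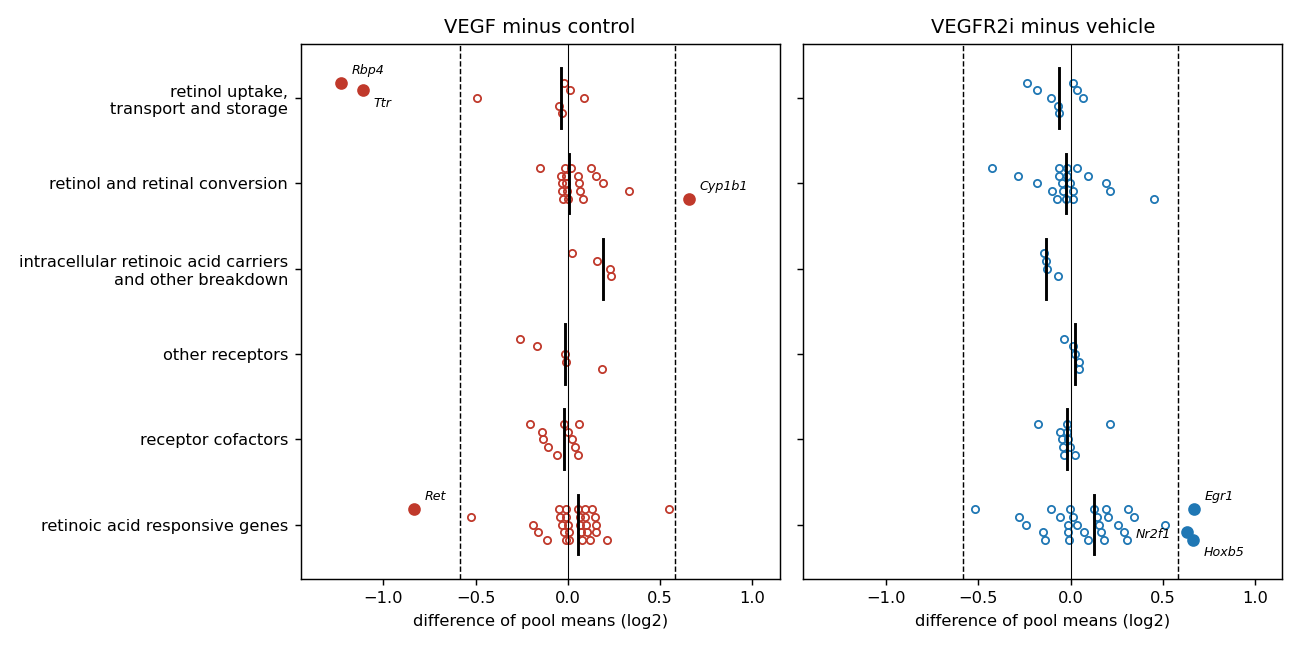
Differences of pool means (log2) for 6 lists of other retinoid pathway genes, VEGF minus control on the left and VEGFR2i minus vehicle on the right. Each circle is a gene, filled and named where it met the size rule, black bars are list medians and dashed lines mark 1.5-fold. The filled circles are Rbp4, Ttr, Cyp1b1 and Ret in fresh buds and Hoxb5, Nr2f1 and Egr1 in explants.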

How the data were processed

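The authors deposited RMA (robust multi-array average) values, made with Partek Genomic Suite 6.5 as the series' design text states, and their range shows a log2 scale. RMA sets arrays to 1 distribution, which can hide shared changes and compresses dim genes. No genome build is given in the sources used here for the arrays.

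Of 35399 probe sets, 21789 had 1 gene symbol in the platform annotation, 1621 had several and 11989 were not listed. For 999 genes with several probe sets the one with the highest mean was kept, leaving 19938 genes. All 9 members matched RefSeq by Entrez ID.

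Pools were compared within each set by the size rule. The precision is limited by the number of arrays, 2 per pool. Alternatives were other folds, scalings, probe set rules and a level filter, leaving out arrays, and the methods' t-test. The scalings of the differences between explants and fresh buds, the alternatives for the other pathway genes, the t-test's count of members and the exchange of the explant labels were chosen after seeing the data. Members and lists were chosen with earlier results of these data known. The text names the 9 members, each list gene called, and otherwise up to 3 per list with the widest difference. Of 85 listed pathway genes, 7 lacked a probe set with a single symbol and were left out. Python 3.11.15, pandas 2.3.3 and scipy 1.17.1 were used.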

Additional observations from a re-analysis of the deposited data

How the results depend on the processing

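The count of members called between the VEGF and control pools was 0 under all alternatives run, the methods' t-test included. In the explants it was 1 (Aldh1a1), 2 at 1.3-fold with Rarb added, and 0 at 2-fold. The methods' t-test with 1.5-fold called 1 member there at an unadjusted p under 0.05 and 0 after Benjamini-Hochberg adjustment. The difference of Aldh1a1 there was -0.90, -0.89 with arrays centred on their medians, -0.94 after quantile normalization, and -0.92 to -0.89 when 1 array was left out. Counts over all genes were 770 at 1.3-fold and 50 at 2-fold for VEGF against control, and 920 and 133 for the explants. The methods' t-test on arrays, with 1.5-fold, gave 271 and 405 genes at an unadjusted p under 0.05 and 0 and 1 after Benjamini-Hochberg adjustment, and it measures hybridization error only. Directions that changed within a set belonged to Aldh1a3 and Cyp26a1 in both comparisons and to Cyp26b1 and Dhrs3 in the explants, whose arrays overlapped there; the cause was not tested. In fresh buds the difference of Aldh1a1 ran between -0.50 and -0.18 over the alternatives. No paired analysis was possible because the labels give no replicate numbers, only a technical repeat. The limit on all values is 1 pool per condition and 2 arrays per pool, and dim genes such as Cyp26a1 and Aldh1a3 are the least certain.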

Other observations

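Outside the 9 genes, other parts of the pathway also differed between explants and fresh buds, as levels across sets that may have been normalized separately. The carrier Crabp2 averaged 3.85 in the explants and 5.88 in the fresh buds, a difference of -2.03, or -2.27 with all 8 arrays quantile normalized together. Rdh10 averaged 8.70 in the explants and 9.88 in the fresh buds, a difference of -1.18 (-1.49 after quantile normalization). The orphan nuclear receptors Nr2f1 and Nr2f2 differed by -1.73 and -1.24 (-2.05 and -1.54). Hoxb2, Hoxb3, Hoxb4 and Hoxb5 differed by -1.01, -0.97, -0.95 and -0.94 (-1.34, -1.29, -1.28 and -1.27). Other genes lay above the fresh buds, among them Btg2 by 3.10, Ret by 2.43, Gata4 by 2.38, the cofactor Kat2b by 1.92 and Egr1 by 1.49 (2.80, 2.12, 2.05, 1.67 and 1.23). Of 31 genes known to respond to retinoic acid, 9 lay at least 1.5-fold below the fresh buds on all explant arrays and 7 above, while 3.43% of all genes lay below and 17.8% above. After quantile normalization those counts were 12 below and 6 above, beside 6.83% and 9.81% of all genes. Cyp1b1, dim in the fresh buds at 3.32 to 4.18, was at 6.99 to 7.42 in the explants. Array means of the mesenchymal markers were 8.46 to 8.75 in the explants and 8.49 to 8.61 in the fresh buds. Single markers of that list differed in both directions. Lum had pool means of 7.88 and 8.08 in the explants and 5.21 and 4.85 in the fresh buds. Prrx1 was at 7.94 to 8.41 and 6.86 to 7.66. Hlx was lower in the explants, at 6.12 to 6.89 and 7.52 to 8.33. So were Foxf1, at 5.02 to 5.32 and 6.24 to 6.58, and Twist1, at 5.09 to 5.65 and 6.12 to 6.49. Foxf1 is also among the 31 genes. Array means of neural crest, glia and neurons, a list that holds Ret, were 6.56 to 6.74 and 5.06 to 5.53. Those of spleen, stomach and intestine, a list that holds Nr2f2, were lower in the explants, at 5.66 to 5.97 and 6.47 to 6.64. The part of these and of the pancreatic markers in the differences was not tested.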
